A study of Mus musculus with 31 samples.

Results

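The Krüppel-like factors described here are the 10 members of the family whose best known roles lie outside red cell formation: Klf2, Klf3, Klf4, Klf5, Klf6, Klf7, Klf9, Klf10, Klf12 and Klf13. They were chosen by name, as members of the family, with earlier results of these data known. All probe sets that the array annotation gives to one of these genes alone were taken, which gave 38. Another 2, placed by the study's own annotation inside an intron of Klf13, were kept apart, which makes 40 of the 45037 probe sets analysed. The 10 genes are among 18193 with at least 1 probe set of their own.

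Krüppel-like factors bind GC-rich and CACCC sequences through a conserved set of zinc fingers at the C-terminus, and differ in what the rest of the protein recruits. Klf2, Klf4, Klf5, Klf6 and Klf7 mostly activate transcription, and several of them work with CBP and p300, the histone acetyltransferases made from Crebbp and Ep300. Klf3 and Klf12 repress transcription through CtBP, and Klf9, Klf10 and Klf13 do so through SIN3A. Several are early response genes in leukocytes, fibroblasts and endothelium, Klf4 being one of the factors that reprogram fibroblasts to pluripotency.

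RNA was measured on Affymetrix mouse genome arrays in 4 experiments with 23 biological samples in all. FL HSC are stem and progenitor cells of the fetal liver, sorted at 14.5 days post coitus as lineage-negative, AA4.1-positive, SCA1-positive cells with high KIT, and each sample pooled 15 embryos. Crebbp+/- FL HSC, with 1 inactivated Crebbp allele, were compared with WT FL HSC, and so were Ep300+/- FL HSC, with 2 mutant and 2 WT pools in each experiment on C57BL/6. Cdkn1a-/- FL HSC, which lack the cell cycle inhibitor p21, came as 4 pools against 3 WT pools on a mixed B6 and 129 background, and those WT animals were bought separately and were not littermates. Crebbp+/- MEF, embryonic fibroblasts, were compared with WT MEF from the same 4 litters, on C57BL/6 at 14.5 days post coitus, with 1 embryo per sample. FL HSC RNA was amplified before labelling, while the methods describe MEF RNA as not amplified. Values are log2 levels after GCRMA, a background correction and normalisation run separately on each experiment, so levels compare only within an experiment. A probe set was tested where its highest sample reached an intensity of 100 (6.64 on the log2 scale), and a call is an adjusted p under 0.05 in limma with a change over 1.5-fold. Because each sample is a mixture of cells, fewer expressing cells and less RNA per cell cannot be told apart.

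Between 11199 and 12363 probe sets reached the minimum on a Crebbp or Ep300 FL HSC array, against 14380 to 14684 on an MEF array and 18947 to 19522 on a Cdkn1a array. All 7 measured markers of FL HSC and progenitors were above the minimum in every FL HSC sample, and all 7 fibroblast markers were so in every MEF sample. In MEF 1 of the FL HSC markers, Mecom, was also above it in every sample (9.59 to 10.06), and 5 were below it throughout. The macrophage marker C1qb was above it in every MEF sample (6.73 to 7.82), and 2 of the 6 macrophage markers were below it throughout. The part of other cells in the MEF levels was not tested. The library labelled Cdkn1a WT sample 3 stood apart. All 4 erythroid, all 4 fetal hepatocyte and all 6 macrophage markers had their highest level of that experiment in it. Member changes described for the Cdkn1a experiment are therefore given with and without this sample.

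Promoters are shown for Klf2, Klf4 and Klf6, because most of their probe sets varied together between the FL HSC pools of the Crebbp experiment. Each sequence is the 250 bases before the RefSeq start site in GRCm38.p6, written 5′ to 3′ on the gene's strand, and capitals mark the core of the cAMP response element, TGACG, on either strand. Klf2 lies at chr8:72318812-72319061 on the plus strand, Klf4 at chr4:55532476-55532725 on the minus strand and Klf6 at chr13:5861239-5861488 on the plus strand.
Klf2: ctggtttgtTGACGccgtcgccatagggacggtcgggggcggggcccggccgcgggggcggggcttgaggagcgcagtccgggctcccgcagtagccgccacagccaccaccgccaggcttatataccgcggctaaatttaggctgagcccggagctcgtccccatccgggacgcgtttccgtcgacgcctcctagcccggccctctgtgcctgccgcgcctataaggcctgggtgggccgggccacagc
Klf4: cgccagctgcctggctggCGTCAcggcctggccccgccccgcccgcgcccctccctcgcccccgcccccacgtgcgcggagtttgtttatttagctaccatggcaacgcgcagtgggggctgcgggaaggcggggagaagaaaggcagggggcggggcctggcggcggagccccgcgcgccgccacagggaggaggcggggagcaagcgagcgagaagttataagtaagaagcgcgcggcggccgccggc
Klf6: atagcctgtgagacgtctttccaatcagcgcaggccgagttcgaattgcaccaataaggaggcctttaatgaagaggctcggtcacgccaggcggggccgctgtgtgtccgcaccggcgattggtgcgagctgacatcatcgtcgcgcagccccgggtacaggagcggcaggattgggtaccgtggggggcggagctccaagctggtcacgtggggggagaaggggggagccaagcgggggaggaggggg
The core stood once in the Klf2 and once in the Klf4 promoter and was not found in that of Klf6. In windows of 300 bases that also take in 50 bases after the start, 6 of the 8 members with a RefSeq promoter held it (Klf2, Klf3, Klf4, Klf9, Klf12 and Klf13), against 20.8% of the 32851 promoters in the table. The complete palindrome TGACGTCA was in none of the 8 (1.79% of all promoters), and neither was a CArG box, the serum response element, on either strand (1.63%). The CACCC box, read as CCNCNCCC on either strand, was in 7 of the 8 (49.5% of all promoters), all but Klf9. The GC box GGGCGG was in 6 of the 8 (35.7%), and overlaps the CACCC box where both match the same bases. These are matches of letters, and binding was not measured.

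Klf2, Klf3, Klf4, Klf6, Klf10 and Klf13 reached the minimum in all 4 experiments and Klf5 only in MEF. Of the 38 probe sets, 12 of 6 genes passed the minimum in the joint fit of Crebbp and Ep300 FL HSC (Klf2, Klf3, Klf4, Klf6, Klf10 and Klf13). In the Cdkn1a experiment 21 probe sets of 9 genes passed, all but Klf5, and in MEF 24 of all 10 genes. The remaining 11 probe sets reached the minimum nowhere.

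**Figure D1:**
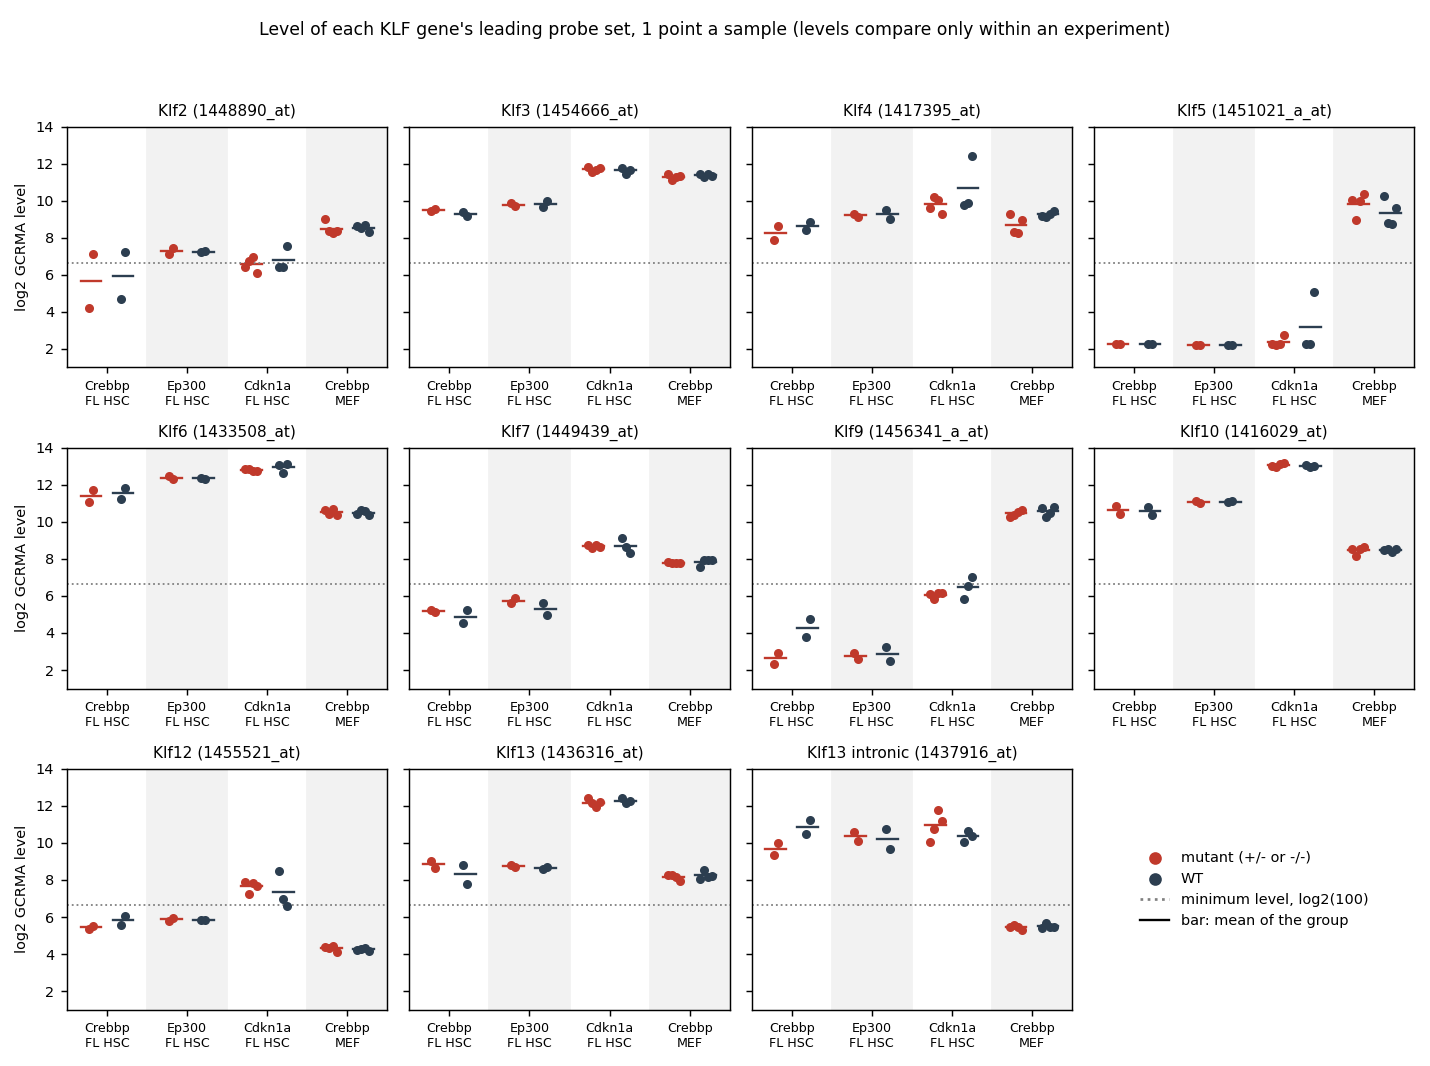
Log2 GCRMA level (y axis) of the leading probe set of each of the 10 genes, the one with the highest mean level, and of 1 Klf13 intronic probe set in the 4 experiments (x axis), with 1 point per sample, a bar at the group mean, mutants in red left of WT in dark blue, and a dotted line at the minimum level. Klf5 and Klf9 lay above the line in MEF and below it in the Crebbp and Ep300 FL HSC, whereas Klf6, Klf10, Klf3 and Klf13 lay above it throughout.

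No member was called in any mutant against its WT. This holds for 12 probe sets in Crebbp+/- FL HSC (0.383% of all 13332 tested were called), 12 in Ep300+/- FL HSC (0% of 13332), 21 in Cdkn1a-/- FL HSC (0.405% of 20962) and 24 in Crebbp+/- MEF (0% of 15502). At an unadjusted p under 0.05 in limma, 4 of the 12 passed in Crebbp+/- FL HSC, against 24% of all probe sets. That count was 1 of 12 against 4.28% in Ep300+/- FL HSC, 0 of 21 against 7.29% in Cdkn1a-/- FL HSC, and 2 of 24 against 6.64% in Crebbp+/- MEF. The median change of the member probe sets was -0.22 on the log2 scale in Crebbp+/- FL HSC, where the median of all probe sets was 0.05. It was -0.01 in Ep300+/- FL HSC (all probe sets -0.02), -0.19 in Cdkn1a-/- FL HSC (0.05) and -0.08 in Crebbp+/- MEF (0.02). Without Cdkn1a WT sample 3 the Cdkn1a median was -0.03, with 0 of 21 called and 0 at an unadjusted p under 0.05. Probe sets of one gene share its transcripts, so these counts are not counts of independent genes.

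**Figure D2:**
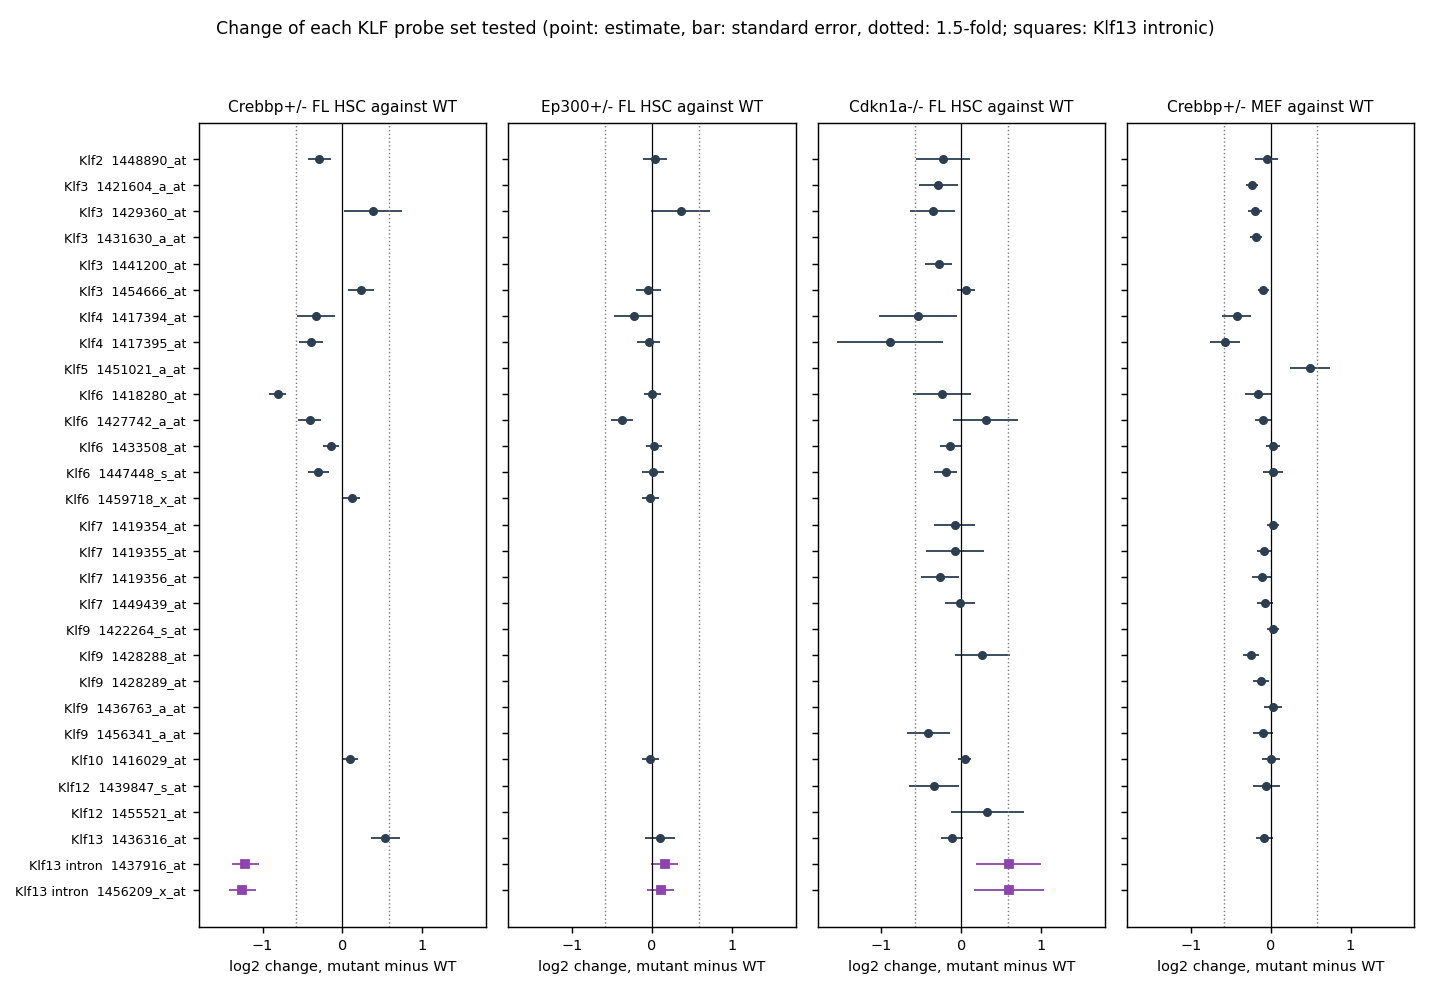
Log2 change, mutant minus WT (x axis), of every member probe set tested (y axis, grouped by gene) in each of the 4 experiments, with standard errors and dotted lines at 1.5-fold. Circles are the 10 genes and purple squares the Klf13 intronic probe sets. Klf6 1418280_at in Crebbp+/- FL HSC and Klf4 1417395_at in Cdkn1a-/- FL HSC are the circles beyond the dotted lines.

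Klf6, an activator first described as a core promoter binding factor, had the largest change in Crebbp+/- FL HSC among the 12 probe sets tested, and it differed between its probe sets. The level of 1418280_at was 8.25 and 9.38 in the Crebbp+/- pools against 9.05 and 10.20 in the WT pools. The groups overlapped, since sample 1 was lower than sample 2 in both genotypes, but within each pair the mutant was lower, by 0.80 and 0.82. For this probe set the 2 arrays of a pool differed by 0.002 to 0.58 in the Crebbp experiment. In the Ep300 experiment, whose pools share the fit, they differed by 0.17 to 0.87, up to the size of those pair changes. The change was -0.81 ± 0.11 on the log2 scale (SE), with an adjusted p of 0.054 over all probe sets in limma, just short of a call. The study listed this probe set as lower in these same samples, so the value is no independent evidence.

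The leading Klf6 probe set, 1433508_at, did not share that size of change. It stood at 11.07 and 11.71 in the Crebbp+/- pools against 11.24 and 11.83 in the WT pools, a change of -0.15 ± 0.10 (adjusted p = 0.44 in limma). The changes of 1447448_s_at, -0.30 ± 0.14, and of 1427742_a_at, -0.41 ± 0.14, lay between these values, and that of 1459718_x_at was 0.12 ± 0.11. The last 2 were below the minimum in all Crebbp FL HSC pools and entered the test through the Ep300 pools. Of the 5 probe sets, 4 were lower in both pairs.

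In Ep300+/- FL HSC 1418280_at had 10.47 and 10.04 in the mutant pools against 10.37 and 10.14 in the WT pools, a change of 0.01 ± 0.11. The WT range lay inside the mutant range. The Crebbp effect minus the Ep300 effect on this probe set was -0.82 ± 0.15, with an adjusted p of 0.18 in limma, where 0% of all 13332 probe sets were called and 15.2% had an unadjusted p under 0.05. The only Klf6 probe set with an unadjusted p under 0.05 in Ep300+/- FL HSC was 1427742_a_at, at -0.37 ± 0.14 (adjusted p = 1.00 in limma). In Crebbp+/- MEF the change of 1418280_at was -0.16 ± 0.16, lower in 2 of 4 litters, and that of 1433508_at 0.03 ± 0.09. The Crebbp effect on 1418280_at in FL HSC minus that in MEF was -0.65 ± 0.25, with an adjusted p of 0.22 in limma.

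Klf4, which both activates and represses cell cycle and monocyte genes, has 2 probe sets. The leading one, 1417395_at, was at 7.88 and 8.62 in Crebbp+/- FL HSC against 8.44 and 8.85 in WT FL HSC. It was lower in both pairs, with overlapping groups and a change of -0.39 ± 0.15 (adjusted p = 0.20 in limma). The other probe set, 1417394_at, had 6.05 and 7.90 in the Crebbp+/- pools against 6.87 and 7.75 in the WT pools and was lower in 1 of 2 pairs. In Ep300+/- FL HSC the changes of the 2 probe sets were -0.04 ± 0.15 and -0.23 ± 0.24.

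In fibroblasts Klf4 stood lower in the mutant in 3 of 4 litters. Its leading probe set had levels of 9.26, 8.30, 8.24 and 8.95 in the Crebbp+/- MEF of litters 1 to 4, against 9.18, 9.12, 9.29 and 9.44 in the WT MEF of the same litters. Litter 1 went the other way, by 0.075, while the mutants of the other 3 litters lay below all 4 WT levels. The change was -0.57 ± 0.19 (adjusted p = 0.70 in limma). The change of 1417394_at was -0.43 ± 0.18, again lower in 3 of 4 litters (adjusted p = 0.75 in limma).

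In the Cdkn1a experiment the Klf4 value rested on 1 library. The level of 1417395_at was 9.63, 10.21, 10.05 and 9.29 in the Cdkn1a-/- pools against 9.78, 9.88 and 12.40 in the WT pools. WT sample 3 was the high one, and the others of both genotypes lay in one range. The change was -0.89 ± 0.66 (adjusted p = 0.72 in limma), and -0.03 ± 0.27 without that sample (adjusted p = 1.00 in limma). The same sample had the highest level of that experiment for 1417394_at (10.42), for Klf6 1418280_at (10.35, against 8.73 to 9.24 elsewhere in the experiment) and for Klf2 (7.53). Its macrophage markers summed to 17257 on the linear scale against 5091 to 10743 in the others, its hepatocyte markers to 83575 against 395 to 3314 and its erythroid markers to 10926 against 47.4 to 86.4. The part of these cells in the Klf levels was not tested.

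Klf2, which keeps lymphocytes and endothelium quiescent, is measured by 1 probe set, and in the Crebbp experiment varied more between pools than between genotypes. It had 4.18 and 7.13 in the Crebbp+/- pools against 4.68 and 7.21 in the WT pools. Both samples numbered 1 lay below the minimum level and both numbered 2 above it, a gap of 2.95 in Crebbp+/- and of 2.54 in WT FL HSC. The change between genotypes was -0.29 ± 0.15 (adjusted p = 0.31 in limma). The 2 arrays of a sample differed by at most 0.65 for this gene over 8 samples. In the Ep300 experiment Klf2 had 7.14 and 7.44 in the mutant pools against 7.23 and 7.27 in the WT pools, with no such gap.

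Some other member probe sets went with the same pools. In the Crebbp experiment sample 2 exceeded sample 1 by 1.84 in Crebbp+/- and 0.88 in WT FL HSC for Klf4 1417394_at, and by 0.74 and 0.41 for 1417395_at. For Klf6 these gaps were 1.13 and 1.15 with 1418280_at, and 0.64 and 0.58 with 1433508_at. Klf10 went the other way, by -0.42 in Crebbp+/- and -0.45 in WT FL HSC. So did Klf13 1436316_at (-0.39 and -1.03), Klf6 1427742_a_at (-0.45 and -0.50) and Klf3 1429360_at (-0.50 and -0.74). Of the 12 member probe sets tested, 8 were higher in sample 2 of Crebbp+/- and 7 in sample 2 of WT FL HSC. In either direction, 4 differed by more than 1 on the log2 scale between the Crebbp+/- pools. Between the WT pools 3 did, Klf13 among them, and of all 13332 probe sets 5.60% and 10.3% did. Between the Ep300+/- pools 1 differed by more than 1, and 0 between the Ep300 WT pools, against 1.71% and 0.885%.

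The immediate early genes, which serum and stress induce within minutes, went with the same samples. Of 13 such genes tested, 12 were higher in sample 2 than in sample 1 of Crebbp+/- FL HSC (median gap 0.94) and 13 in WT FL HSC (0.58), while 5 and 4 of 13 were so in the Ep300 experiment. The median gap of all 13332 probe sets was -0.01 in Crebbp+/- and -0.05 in WT FL HSC. Egr2 and Ier2 were below the minimum in all Crebbp FL HSC pools and entered through the Ep300 pools. Fos had 11.52 and 12.58 in the Crebbp+/- pools against 12.14 and 12.54 in the WT pools, Jun 10.06 and 11.22 against 10.16 and 11.31, and Zfp36, which destabilises mRNA, 8.13 and 9.61 against 8.75 and 9.99. The macrophage receptor gene Csf1r, which some progenitors also transcribe, had 9.31 and 10.90 in the Crebbp+/- pools against 9.81 and 10.76 in the WT pools. Hepatocyte transcripts were unequal in another order, with Alb at 5.85 and 5.74 in the Crebbp+/- pools against 2.43 and 7.06 in the WT pools. The part of cell handling or of other cells in the pool gaps was not tested, and the labels name no batch for the sample numbers.

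**Figure D3:**
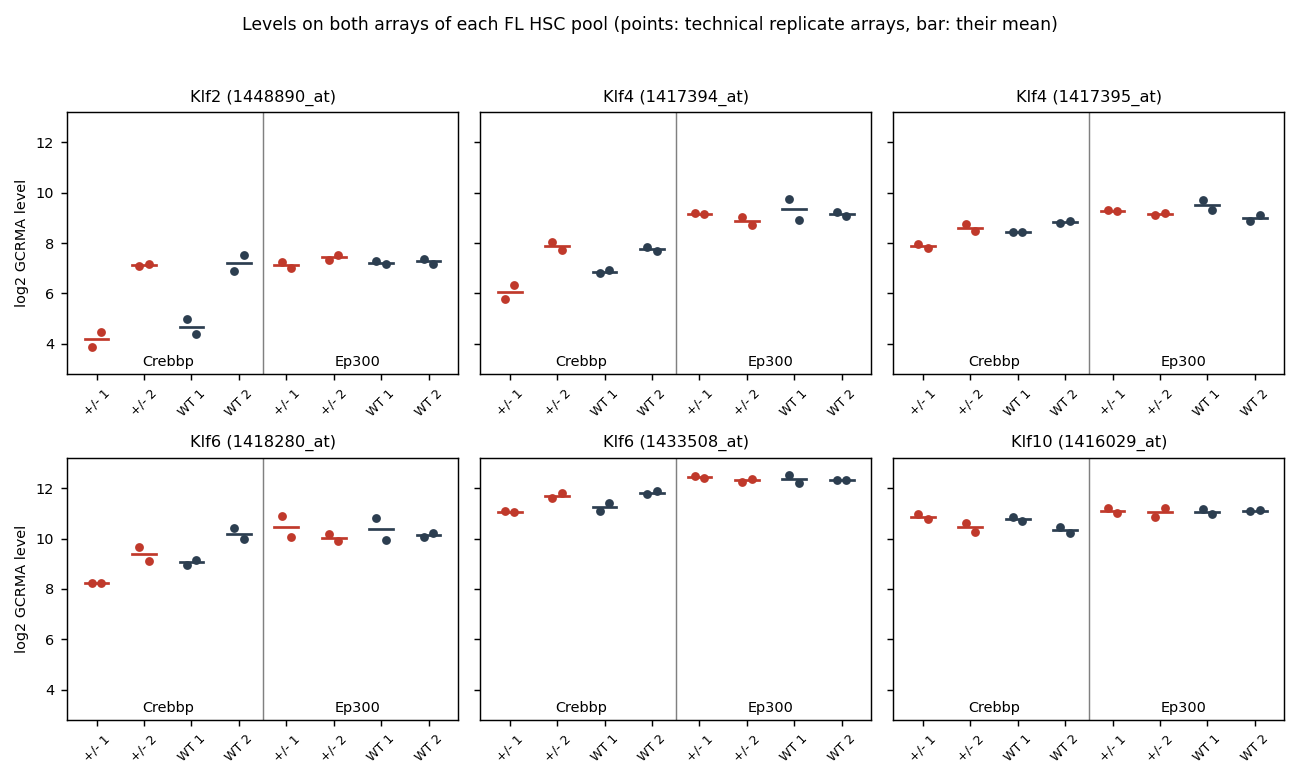
Log2 level (y axis) of Klf2, Klf4, Klf6 and Klf10 probe sets on both arrays of every Crebbp and Ep300 FL HSC pool (x axis), with Crebbp+/- or Ep300+/- in red left of WT in dark blue, points for technical replicate arrays and a bar at their mean. In the Crebbp experiment the samples numbered 1 lie low for Klf2 in both genotypes (4.18 and 4.68), while in the Ep300 experiment the 4 pools lie together.

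Correlations were taken over 22 samples centred on the mean of their experiment, without Cdkn1a WT sample 3. The leading probe sets of Klf2 and Klf6 correlated with r of 0.75, those of Klf2 and Klf4 with 0.53 and those of Klf4 and Klf6 with 0.27. Klf2 and Klf10 had r of -0.68, and Klf2 and Klf13 -0.65. The probe sets of other genes most like Klf2 were those of Tsen34, Arf6 and Rhob (r of 0.92, 0.92 and 0.92 among 8825 candidates), for Klf10 those of Asph, Fam107b and Smim15 (0.89, 0.88 and 0.87), and for Klf13 those of Ccdc6, Dcun1d1 and Btf3 (0.91, 0.91 and 0.89). For Klf6 they were Pdcd2, Cux1 and Grk6 (0.82, 0.81 and 0.81), for Klf3 Mib1, Lgr4 and Stat5b (0.79, 0.79 and 0.78) and for Klf4 Malat1, Stx4a and Naa15 (0.75, 0.73 and 0.72). These correlations describe samples that share experiments and pools.

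Klf5, an activator of epithelial and smooth muscle growth, was measured in MEF alone. The level of 1451021_a_at was 10.01, 8.94, 10.01 and 10.37 in Crebbp+/- MEF against 10.23, 8.77, 8.76 and 9.61 in WT MEF. It was higher in 3 of 4 litters with overlapping groups, and the change of 0.49 ± 0.25 did not pass (adjusted p = 0.76 in limma). In the FL HSC the level lay between 2.21 and 2.75 in every sample but Cdkn1a WT sample 3, which had 5.08, still below the minimum. The other 2 Klf5 probe sets reached the minimum in no sample.

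Klf7, an activator in neurons and blood progenitors, was below the minimum in all Crebbp and Ep300 FL HSC. In the Cdkn1a experiment the leading probe set, 1449439_at, had 8.74, 8.58, 8.77 and 8.63 in Cdkn1a-/- FL HSC against 9.11, 8.66 and 8.32 in WT FL HSC. The lowest of these was WT sample 3. With it the mutant range lay inside the WT range and the change was -0.02 ± 0.18, and without it the change was -0.20 ± 0.14 (adjusted p = 1.00 in limma). In Crebbp+/- MEF the 4 Klf7 probe sets had changes between -0.11 and 0.03, with adjusted p between 0.85 and 0.93 in limma.

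Klf3, the CtBP-dependent repressor of B cell and erythroid genes, was called in no mutant, and its probe sets differed in their changes. Its leading probe set, 1454666_at, had 9.47 and 9.54 in Crebbp+/- FL HSC against 9.37 and 9.17 in WT FL HSC. The mutant levels were above both WT levels, with a change of 0.23 ± 0.16 (adjusted p = 0.44 in limma). In Ep300+/- FL HSC 1454666_at changed by -0.04 ± 0.16. Klf3 1429360_at had 0.38 ± 0.36 in Crebbp+/- and 0.36 ± 0.36 in Ep300+/- FL HSC, with Ep300 pairs of -0.41 and 1.12. In Cdkn1a-/- FL HSC 1454666_at changed by 0.06 ± 0.11 (0.07 ± 0.12 without WT sample 3). The other Klf3 probe sets tested there changed by -0.36 to -0.28, and by -0.26 to 0.01 without that sample. In Crebbp+/- MEF all 4 tested Klf3 probe sets were lower than in WT MEF, 3 of them in 4 of 4 litters, with changes of -0.23 ± 0.08 for 1421604_a_at, -0.20 ± 0.09 for 1429360_at, -0.18 ± 0.08 for 1431630_a_at and -0.09 ± 0.07 for 1454666_at. None passed (adjusted p between 0.70 and 0.80 in limma).

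Klf12, a CtBP-dependent repressor of AP-2 alpha, had its leading probe set, 1455521_at, above the minimum only in the Cdkn1a experiment. It stood at 7.90, 7.22, 7.84 and 7.70 in Cdkn1a-/- FL HSC against 8.46, 6.99 and 6.57 in WT FL HSC. The WT pools spread over more than the mutant range, and the change was 0.33 ± 0.45 (adjusted p = 0.82 in limma). The lowest level, 6.57, was that of WT sample 3, and without it the change was -0.06 ± 0.43, so its sign rests on that library. The other probe set tested there, 1439847_s_at, changed by -0.34 ± 0.31 in Cdkn1a-/- FL HSC, and by -0.20 ± 0.36 without WT sample 3. In MEF 1439847_s_at passed the minimum through 1 WT sample, and changed by -0.06 ± 0.17.

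Klf10, a transforming growth factor beta early gene, varied little between groups. The level of its single probe set was 10.87 and 10.44 in Crebbp+/- FL HSC against 10.79 and 10.34 in WT FL HSC, a change of 0.09 ± 0.10. In Ep300+/- FL HSC it was 11.11 and 11.04 against 11.07 and 11.11 in WT FL HSC, a change of -0.02 ± 0.10. The 7 pools of the Cdkn1a experiment lay between 12.97 and 13.15, with a change of 0.04 ± 0.08 (0.03 ± 0.09 without WT sample 3), and the change in Crebbp+/- MEF was 0.01 ± 0.11. The groups overlapped in all 4 experiments.

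Klf9, which thyroid hormone and glucocorticoids induce in many tissues, was high in MEF and at most near the minimum elsewhere. In Crebbp+/- MEF 1456341_a_at had 10.28, 10.39, 10.53 and 10.64 against 10.74, 10.23, 10.46 and 10.79 in WT MEF, a change of -0.10 ± 0.12 (adjusted p = 0.86 in limma). In Crebbp+/- FL HSC the same probe set had 2.35 and 2.91 against 3.80 and 4.74 in WT FL HSC, all below the minimum, so it was not tested there. The Crebbp effect in FL HSC minus that in MEF was -1.54 ± 0.22 for this probe set, with an adjusted p of 0.021 in limma. It was the 1 member probe set of 25 called in that comparison, where 1.79% of all 18586 were called, and it passed the filter through MEF alone. The FL HSC side of this difference rests on levels below the minimum, so no conclusion is drawn from the call. The other tested Klf9 probe sets had -0.38 ± 0.32 (1428288_at), -0.03 ± 0.21 (1428289_at), -0.09 ± 0.18 (1436763_a_at) and -0.01 ± 0.13 (1422264_s_at), none called. At an unadjusted p under 0.05 in limma 3 of the 25 passed, against 17.5% of all. All 4 FL HSC levels of 1456341_a_at lay below an intensity of 100, and the part of the background correction in its difference was not tested. The call was lost when only probe sets at the minimum in both cell types were kept. It was also lost without Crebbp FL HSC pair 2 (adjusted p = 0.082 in limma) and without MEF litter 2, 3 or 4 (0.068, 0.078 and 0.059).

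Klf13, which activates Ccl5 late in T cell activation and also represses through SIN3A, was read by probe sets of its mature RNA and of an intron. The leading probe set, 1436316_at, had 9.03 and 8.64 in Crebbp+/- FL HSC against 8.82 and 7.78 in WT FL HSC. It was higher in both pairs with overlapping groups, a change of 0.54 ± 0.18 that did not pass the test (adjusted p = 0.17 in limma). The pairs were unlike, at 0.22 and 0.86. Another Klf13 probe set outside the intron, 1432543_a_at, lay below the minimum and was lower in both pairs, by 0.88 and 0.57. The change was 0.10 ± 0.18 in Ep300+/- FL HSC, -0.11 ± 0.14 in Cdkn1a-/- FL HSC (-0.12 ± 0.16 without WT sample 3) and -0.08 ± 0.11 in Crebbp+/- MEF. The Crebbp effect in FL HSC minus that in MEF was 0.62 ± 0.22 (adjusted p = 0.20 in limma).

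The 2 Klf13 intronic probe sets, 1437916_at and 1456209_x_at, target overlapping bases and are not independent. Their levels differed by at most 0.33 in any of the 23 samples. The study listed them for being lower in these Crebbp+/- FL HSC, so in that contrast their values are a description with no test. The level of 1437916_at was 9.32 and 9.97 in the Crebbp+/- pools against 10.48 and 11.25 in the WT pools. The groups did not overlap, and the changes of the 2 probe sets were -1.21 ± 0.17 and -1.25 ± 0.17.

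In Ep300+/- FL HSC, whose samples were not used to list them, the intronic probe sets did not move one way. The level of 1437916_at was 10.61 and 10.13 in the Ep300+/- pools against 10.75 and 9.66 in the WT pools, a change of 0.16 ± 0.17 (adjusted p = 1.00 in limma). The Ep300+/- values lay inside the WT range. In the Cdkn1a experiment its level was 10.07, 10.73, 11.79 and 11.20 in Cdkn1a-/- FL HSC against 10.06, 10.65 and 10.36 in WT FL HSC, a change of 0.59 ± 0.40 (adjusted p = 0.72 in limma). There 3 of the 4 mutant pools lay above all WT pools. Without WT sample 3 the change was 0.59 ± 0.49. In MEF both intronic probe sets lay below the minimum, between 5.12 and 5.74, while 1436316_at stood at 7.96 to 8.27 in Crebbp+/- MEF and at 8.04 to 8.54 in WT MEF.

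**Figure D4:**
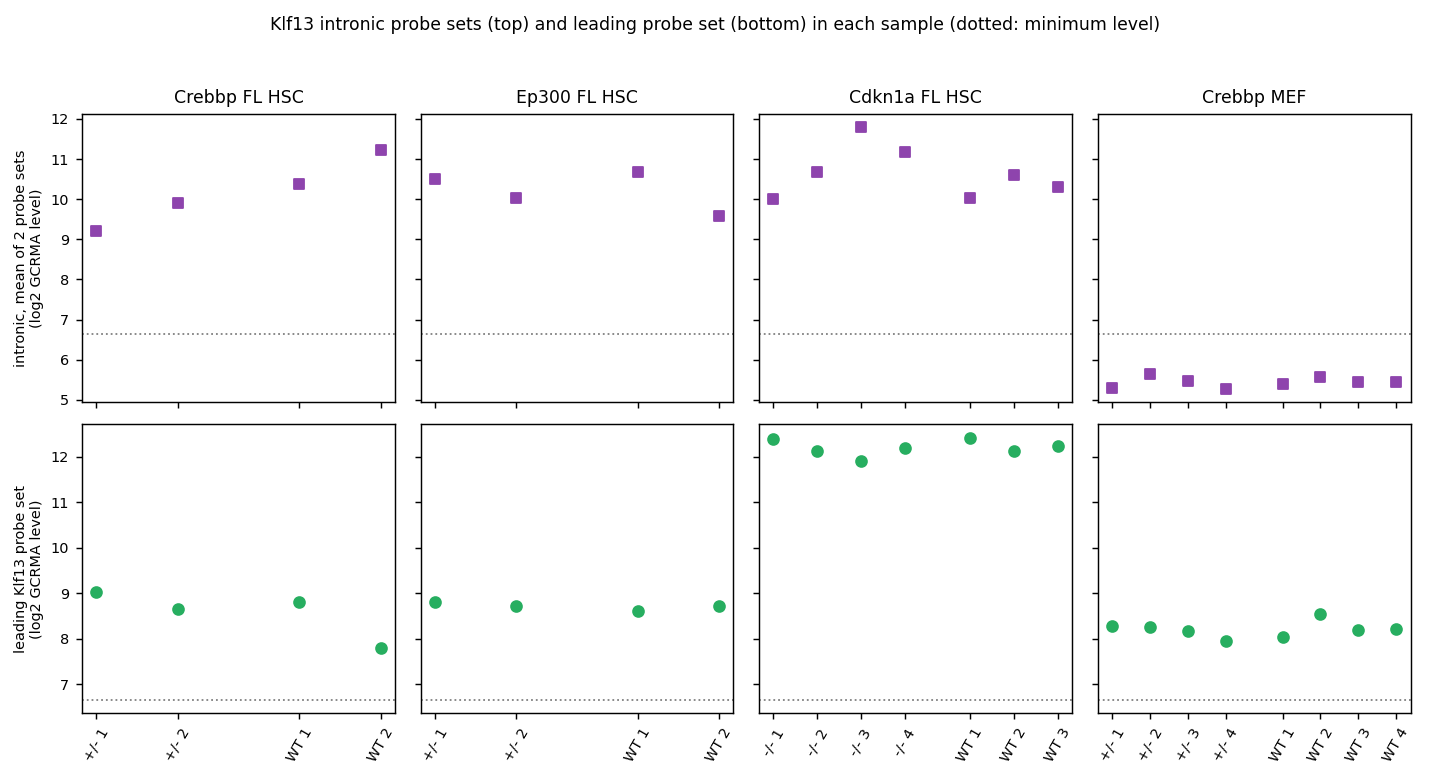
Log2 level (y axis) of the mean of both Klf13 intronic probe sets (top row, purple squares) and of the leading Klf13 probe set (bottom row, green circles) in every sample (x axis, mutants left of WT) of the 4 experiments, with the minimum level dotted. The rows have axes of their own, since levels of different probe sets are not comparable. In MEF the squares lie below the minimum, and in Crebbp FL HSC the squares of the Crebbp+/- pools lie below those of the WT pools.

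To compare FL HSC with fibroblasts across the separate normalisations, each probe set was placed by its percentile among the 45037 probe sets of its array, in 4 WT FL HSC pools of the Crebbp and Ep300 experiments and 4 WT MEF samples. A call here is an adjusted p under 0.05 in limma on the normal scores with mean percentiles at least 10 points apart. Cell type, amount of RNA, amplification and the group of arrays normalised together cannot be told apart in this comparison. Of the 24 member probe sets tested, 10 reached the minimum in both cell types, those of Klf2, Klf4, Klf10 and 4 of Klf6, with 1 each of Klf3 and Klf13. Among these 10, 2 were called higher in FL HSC, Klf10 and Klf6 1447448_s_at, and 1 lower, Klf6 1427742_a_at. Of all 9992 probe sets at the minimum in both cell types, 18.6% were called higher and 10.5% lower. The other 14 members reached it in MEF alone, so that their direction was set by the filter and they are described without a test. Over all 18300 probe sets tested 25.9% were called higher and 29.2% lower. For each single probe set the exact two-sided permutation test of 4 against 4 cannot go below p = 0.0286.

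Among the activators Klf5 1451021_a_at lay at percentile 6.70 ± 0.19 in WT FL HSC and 86.5 ± 4.6 in WT MEF (SD, n = 4 each). Its FL HSC levels were at most 2.25 on the log2 scale, far below the minimum, and the Cdkn1a WT pools, which did not enter the comparison, had percentiles of 38.2 to 51.7, also below all MEF samples. The leading Klf7 probe set, 1449439_at, lay at 64.8 ± 2.3 in FL HSC and 75.8 ± 1.4 in MEF (SD, n = 4 each), with 66.4 to 70.5 in the Cdkn1a WT pools. All 4 Klf7 probe sets were below the minimum in the FL HSC pools of the comparison. Klf2 lay at 73.9 ± 7.2 in FL HSC and 81.0 ± 1.5 in MEF and missed the 10 points. In the Cdkn1a WT pools Klf2 lay lower, at 56.0 to 62.2, so the FL HSC experiments differed among themselves.

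The probe sets of Klf6 and of Klf4 disagreed. Klf6 1447448_s_at was called higher in FL HSC, at 97.0 ± 1.7 against 85.5 ± 1.8 in MEF, and 1427742_a_at lower, at 75.2 ± 7.3 against 92.7 ± 1.0 (SD, n = 4 each, exact permutation p = 0.0286 for each). The Cdkn1a WT pools had 83.2 to 86.9 for 1447448_s_at, in the range of the MEF samples, and 53.8 to 62.4 for 1427742_a_at, below all of them. The leading Klf6 probe set lay at 98.1 ± 0.8 in FL HSC and 93.2 ± 0.5 in MEF, near the top of both, and 1418280_at at 92.2 ± 2.4 and 90.6 ± 1.4 with overlapping samples. Klf4 1417394_at lay at 83.8 ± 6.0 in FL HSC and 92.2 ± 0.6 in MEF, while 1417395_at lay at 87.8 ± 1.8 and 86.3 ± 0.9, where the samples overlapped. In the Cdkn1a WT pools Klf6 1418280_at lay at 68.0 to 79.4, below every sample of both groups, and Klf4 1417394_at at 66.4 to 79.8. No direction is therefore given for Klf6 or Klf4 as genes.

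Within this comparison Klf9 reached the minimum in MEF alone, and its levels in the 4 FL HSC pools were at most 4.74. The leading probe set lay at percentile 55.0 ± 8.7 in FL HSC and 93.4 ± 1.0 in MEF (SD, n = 4 each), with 53.7 to 59.7 in the Cdkn1a WT pools, and the differences of the other 4 ran from -39.4 to -32.7 points. Klf3 reached the minimum in both cell types with its leading probe set only, which lay at 90.7 ± 0.9 in FL HSC and 96.1 ± 0.2 in MEF and missed the 10 points. The 3 Klf3 probe sets that passed through MEF differed by -44.9 to -13.9 points. Klf12 1439847_s_at had 55.7 ± 0.6 in FL HSC and 65.7 ± 1.8 in MEF, just short of the 10 points, and its leading probe set was below the minimum in all 8 samples.

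Klf10 was the other called gene higher in FL HSC, at 95.6 ± 0.7 against 80.4 ± 0.6 in MEF (SD, n = 4 each, exact permutation p = 0.0286). The Cdkn1a WT pools had 95.1 to 95.5. Klf13 1436316_at lay at 85.2 ± 2.2 in FL HSC and 78.7 ± 1.6 in MEF, 6.52 points apart and not called. The intronic 1437916_at passed the filter through FL HSC alone and is described without a test. It lay at 94.3 ± 2.8 in FL HSC and 62.1 ± 0.7 in MEF (SD, n = 4 each), and the Cdkn1a WT pools had 77.0 to 81.0, between both.

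**Figure D5:**
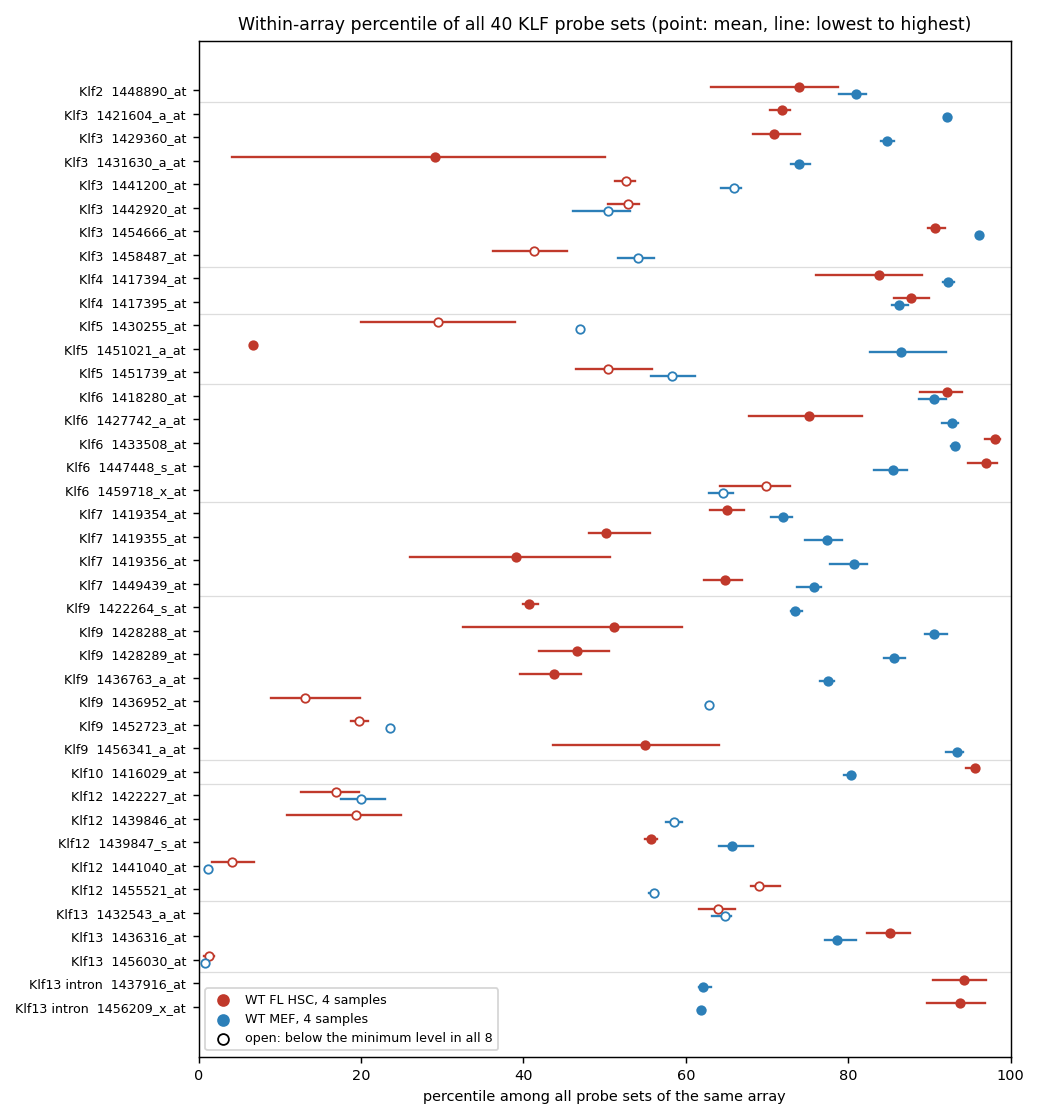
Percentile among the probe sets of the same array (x axis) of all 40 probe sets (y axis, grouped by gene) in 4 WT FL HSC samples, red, and 4 WT MEF samples, blue, with the mean as a point and the lowest to highest sample as a line. Open points lay below the minimum level in all 8 samples. Klf10 lies at 95.6 in FL HSC against 80.4 in MEF, and the Klf5 and Klf9 points of FL HSC lie left of those of MEF.

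The wider set of genes around these factors was counted by leading probe sets, from lists of other SP and KLF genes, corepressors and coactivators, upstream regulators, known target genes and immediate early genes. None of their members was called in the 4 mutant comparisons by limma. The counts at an unadjusted p under 0.05 stand beside 24% of all probe sets in Crebbp+/- FL HSC, 4.28% in Ep300+/- FL HSC, 7.29% in Cdkn1a-/- FL HSC and 6.64% in Crebbp+/- MEF. Of the coregulators 1 of 12 passed at that level in Crebbp+/- FL HSC, which was Wdr5, 0 in Ep300+/- FL HSC, 0 in Cdkn1a-/- FL HSC and 1 in Crebbp+/- MEF. The last was Crebbp itself, the inactivated gene, at -0.79 ± 0.07 (adjusted p = 0.42 in limma). The same Crebbp probe set was not lower in Crebbp+/- FL HSC, where its change was 0.07 ± 0.14. That of Ep300 in Ep300+/- FL HSC changed by -0.10 ± 0.10. Of the 4 other SP and KLF genes tested in the Crebbp and Ep300 FL HSC, Sp1 passed at that level in Crebbp+/- FL HSC, at 0.38 ± 0.14, and Klf11 in Ep300+/- FL HSC, at 0.29 ± 0.10. Of the upstream regulators 2 of 13 passed in Crebbp+/- FL HSC, Mef2d at -0.37 ± 0.11 and Mtor at 0.36 ± 0.13, and 0 in the other mutants. The shares of these 3 lists in Crebbp+/- FL HSC were near or below that of all probe sets.

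Of the targets 3 of 10 passed in Crebbp+/- FL HSC, against 24% of all, with Thbd, the thrombomodulin gene that Klf2 and Klf4 induce in endothelium, at 0.73 ± 0.15 (adjusted p = 0.083 in limma). Smad2 was also higher, at 0.36 ± 0.11, and Eng was lower, at -0.66 ± 0.23. In Crebbp+/- MEF 6 of 15 targets passed, against 6.64% of all, led by Bmp4 at 0.34 ± 0.08 (adjusted p = 0.56 in limma). They went both ways, with Bmp4, Smad7 and S1pr1 higher and Ccnd1, Ccnd2 and Eng lower. In Cdkn1a-/- FL HSC 2 of 15 passed, and 0 without WT sample 3. These were Pdgfa, at -0.70 ± 0.22, and Cdkn1a itself, the inactivated gene, at -1.66 ± 0.64. The genotype alone can lower Cdkn1a, so its place in this count says nothing on Klf targets. Of the immediate early genes 6 of 13 passed in Crebbp+/- FL HSC, all of them lower, 2 of 13 in Ep300+/- FL HSC and 1 of 14 in Crebbp+/- MEF. In Cdkn1a-/- FL HSC 5 of 13 passed, all of them higher, against 7.29% of all, and without WT sample 3 again 5 of 13, against 6.35%. The smallest p of this list there was that of Egr1, at 1.81 ± 0.39 (adjusted p = 0.22 in limma), and at 1.92 ± 0.47 without that sample (0.34). The list medians in Crebbp+/- FL HSC were 0.28 for 4 other SP and KLF genes, -0.01 for 12 coregulators, 0.18 for 13 upstream regulators, 0.16 for 10 targets and -0.27 for 13 immediate early genes, where all probe sets had 0.05.

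By rank in WT FL HSC against WT MEF, only list genes at the minimum in both cell types are counted, beside 18.6% of all such probe sets called higher and 10.5% called lower. Of the 10 targets 1 was called higher, Myc, by 12.2 points, and 0 lower. Lgals3, Bmp4 and Cdkn1a, a target of Klf4 and Klf6, differed by -90.2, -88.4 and -31.9 points but reached the minimum in MEF alone. Of the 13 upstream regulators 3 were called higher and 1 lower, and Mef2c, which acts with the kinase ERK5 in inducing Klf2 and Klf4, was 22.3 points higher in FL HSC. Of the 3 other SP and KLF genes Klf16 was called higher, and of the 12 coregulators Wdr5 higher and Hdac3 lower. Of the 11 immediate early genes 3 were called higher and 1 lower in FL HSC.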

How the data were processed

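The deposited log2 values come from GCRMA, which the authors ran separately on 4 groups of arrays to correct background, normalise by quantiles and summarise each probe set. Presence calls were not used here. Of 45101 probe sets, 64 controls were dropped. The 2 arrays of each Crebbp and Ep300 FL HSC sample were averaged, so 31 arrays gave 23 samples. Of the 45037 probe sets, 34945 have 1 gene in the platform annotation, 932 several and 9160 none. The Klf13 intronic probe sets were named from the study's own annotation.

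limma 3.58.1 in R 4.3.3 gave the tests, with Benjamini-Hochberg adjustment over all probe sets tested: 1 model for Crebbp and Ep300 FL HSC that blocks on pairs of equal number, Cdkn1a unpaired, MEF with a block per litter. The MEF pairing comes from the litters in the labels and the FL HSC pairing from the study's paired test. Deviations of same-numbered samples from their group means correlated with r of 0.70 (Crebbp FL HSC), 0.40 (Ep300 FL HSC) and 0.19 to 0.46 (MEF litters). The comparison of the Crebbp effect between cell types pools the spread of FL HSC and MEF pairs. In the blocked fits p-values measure the spread of the mutant minus WT changes between pairs, since differences between pairs are removed by the block. In the Cdkn1a and rank fits they measure the spread between samples of a group. The number of samples limits their precision. The limma fits, those on ranks included, were tested on simulated data, and the promoter search and the descriptive steps were not.

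All member probe sets are reported. A gene's leading probe set has the highest mean level over all samples, and list genes are named where called or for a small p. The genes most like a member were the 3 with the highest correlation. The members, lists and tests were chosen with earlier results of these data known. Alternatives were the filter on level, the scaling, the variance model, the block, single technical replicates, samples left out and the methods' t-test. Promoters are from the RefSeq table of GRCm38.p6, which holds 8 of the 10 members.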

Additional observations from a re-analysis of the deposited data

Results flagged for a closer look

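Within groups of 4 samples, 7 of the 71 values of a member probe set and group examined had 1 sample far from the other 3, where chance flags about 1 in 20. In Crebbp+/- MEF, litter 1 stood high for Klf2 1448890_at (9.002, others 8.27 to 8.35) and low for Klf7 1419354_at (7.27, others 7.38 to 7.40). In WT MEF, litter 4 stood high for Klf3 1421604_a_at (10.40, others 10.22 to 10.23) and litter 1 low for Klf7 1449439_at (7.58, others 7.92 to 7.96). In Cdkn1a-/- FL HSC, pool 1 stood high for Klf6 1427742_a_at (7.64, others 6.86 to 6.97), and pool 2 low for Klf9 1428288_at (6.854, others 6.982 to 6.998) and 1456341_a_at (5.85, others 6.12 to 6.13). The gaps for Klf3, Klf7 and Klf9 are small on the log2 scale.

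The Crebbp effect on Klf9 1456341_a_at differed between FL HSC and MEF by -1.54 on the log2 scale. The Crebbp FL HSC levels of both genotypes were below the minimum, so no conclusion is drawn from this difference.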

How the results depend on the processing

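No member was called in Ep300+/- FL HSC, Cdkn1a-/- FL HSC, Crebbp+/- MEF or the Crebbp minus Ep300 difference under any alternative run. In Crebbp+/- FL HSC 1 was called, Klf6 1418280_at, with the median sample at the minimum, with samples centred on their medians, with a trended and robust variance model and with the methods' t-test before adjustment. With no replicate block 0 members were called there and in MEF, and 0 with the block on numbers 1 to 3 in the Cdkn1a experiment. Over all probe sets the Crebbp FL HSC calls numbered 51, and 0 without the block, with either technical replicate alone, without the filter, with the samples of the experiment alone, with either pair left out or with the methods' t-test after adjustment. On normal scores they were also 0, but there the 1.5-fold limit was applied in units of the score, which few probe sets reach, and Klf6 1418280_at had -0.23 with an adjusted p of 0.016 in limma. They were 233 with the median filter, 208 with centred samples, 877 with the trended model and 199 with the methods' t-test. The Cdkn1a calls were 85, and 26 to 548 under the alternatives other than the block, where they were 6. The Ep300 calls were 0 and, with the methods' t-test before adjustment, 11. The MEF calls were 0, 2 with no replicate block and 61 with that t-test, and the calls of the Crebbp minus Ep300 difference 0, and 62 with the trended model. The difference between FL HSC and MEF had 1 member called, Klf9, and 0 with the minimum in both cell types, 0 to 1 with a pair or litter left out. Its calls over all probe sets were 333, 77 with the minimum in both cell types, 681 without Crebbp FL HSC pair 1, and 14, 22 and 86 without litter 2, 3 and 4. In the rank comparison Klf4 1417395_at turned to -1.38 points with all 7 WT FL HSC samples and -5.22 with the Cdkn1a pools alone, neither called. Of 391 values of 31 single results under alternatives, 371 kept direction and side of the threshold and 18 moved across it. Klf2 was called lower in FL HSC with all 7 pools (-13.9 points). Klf7 1449439_at, which in the main comparison passed the filter through MEF alone, had -9.51 points with these 7 pools and is described without a test. Leaving a pair of the same number out of both experiments leaves no residual degrees of freedom and gave values only. Leaving it out of 1 experiment was added after seeing the data. No paired analysis was possible for the rank comparison because its groups share no numbers that pair samples.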
